A study of Mus musculus with 14 samples.

Results

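Among the m6A peaks of WT mouse embryonic stem cells (mESCs), 434 of 17693 (2.45%) had their summit in a short internal exon, and these 434 peaks are described here. A peak was included when its summit, the base with the strongest enrichment, lay in an exon under 400 bp that was neither the first nor the last exon of its gene, and more than 300 bp from the 5′ end of the gene. Overlapping exons of a gene were merged first, and where a summit lay in exons of several genes (16 of the 434 peaks) the gene with the longest summed exons was taken. Of the genes with such peaks 367 carried 1, 29 carried 2 and 3 (Ptch1, Incenp and 2610005L07Rik) carried 3. The rule used no value of the R255K cells, no fold enrichment and no RNA level.

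The cells were WT E14 mESCs, a mouse embryonic stem cell line, and mESCs with a knock-in of METTL14 R255K, in which lysine replaces an arginine of METTL14. Knock-in colonies were picked singly, and how many clones were sequenced is not given in the sources used here. For each genotype 2 immunoprecipitated and 2 input libraries were deposited as 1 common list of peaks (9437 peaks in R255K cells), and 1 RNA library was sequenced after 0, 4 and 8 h of actinomycin D, which stops transcription. With 1 list per genotype and 1 library per genotype and time there is no replicate error for any value, so no test between genotypes was made. All intervals given are 95% intervals that cover counting error only, and for medians over peaks or genes they cover the spread between those peaks or genes.

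m6A, a methyl group on the N6 position of adenosine, is written into nascent mRNA by a complex of METTL3, the catalytic subunit, and METTL14, which helps to hold the RNA. The complex prefers an A within a short motif whose common core is GGAC. In mammals the mark is concentrated in long internal exons, around stop codons and in 3′UTRs. Exon junction complexes, which are deposited just upstream of each splice junction, are known to keep the writer away from nearby RNA, so that short internal exons are mostly free of the mark. Readers of the YTH family bind m6A, and YTHDF proteins speed up the decay of marked mRNAs. A peak in a short internal exon is therefore an uncommon kind of site, and the antibody used in MeRIP-seq has background binding of its own and also binds m6Am, a related mark beside the cap.

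The sequences below come from some of the strongest of these peaks, chosen for holding GGAC in coding sequence. They are 7 of the coding-sequence peaks with GGAC among the 10 with the highest fold enrichment on genes with an FPKM (counts per kb of exon, scaled to equal library totals) of at least 1 in the WT 0 h library and among the 5 kept and the 5 lost with the highest −log10 q. The first 5 were kept in R255K cells, which means overlapped by an R255K peak, and Cyld and Rnf157 were lost. The exon of Rnf157 is shown whole (111 bp), and for the longer exons the 101 bases centred on the summit are shown. All are read from the mm10 genome on the strand of the gene, 5′ to 3′, and capitals mark GGAC.
Mettl6, chr14:31493679-31493779, minus strand: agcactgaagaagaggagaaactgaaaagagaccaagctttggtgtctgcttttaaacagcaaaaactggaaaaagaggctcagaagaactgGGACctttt
Atad2, chr15:58098499-58098599, minus strand: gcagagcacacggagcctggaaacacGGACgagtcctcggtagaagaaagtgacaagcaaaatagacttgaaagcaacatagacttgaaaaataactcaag
Ncoa5, chr2:165012905-165013005, minus strand: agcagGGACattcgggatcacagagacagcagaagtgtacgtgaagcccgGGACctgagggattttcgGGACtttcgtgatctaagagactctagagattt
Lrp5, chr19:3630204-3630304, minus strand: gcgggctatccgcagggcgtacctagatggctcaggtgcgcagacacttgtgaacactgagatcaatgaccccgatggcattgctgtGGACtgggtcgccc
Spata13, chr14:60756341-60756441, plus strand: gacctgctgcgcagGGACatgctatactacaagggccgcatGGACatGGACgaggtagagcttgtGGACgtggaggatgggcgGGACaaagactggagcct
Cyld, chr8:88707153-88707253, plus strand: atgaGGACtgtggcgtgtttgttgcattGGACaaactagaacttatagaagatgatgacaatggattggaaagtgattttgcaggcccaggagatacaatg
Rnf157, chr11:116344195-116344305, minus strand: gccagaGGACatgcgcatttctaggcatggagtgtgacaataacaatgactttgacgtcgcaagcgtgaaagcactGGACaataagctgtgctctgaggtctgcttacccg

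In these windows the A of the nearest GGAC lay 1 base from the summit in Spata13, 2 bases in Ncoa5, 20 in Cyld, 22 in Atad2, 39 in Lrp5 and 44 in Mettl6. Spata13 had 5 copies of GGAC in 101 bases, Ncoa5 had 3, Cyld had 2, and Atad2, Lrp5 and Mettl6 had 1. In the Rnf157 exon the summit lay at base 108 of 111, at the 3′ edge, and the nearest GGAC 29 bases before it. Vps54, a lost peak of the same rule, had no GGAC within its 101 bases and is not shown. By comparison, 35.5% of 101-base windows at the middle of all short internal exons of expressed genes held GGAC.

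Peaks in short internal exons were rare for the amount of such exon there is. In genes with an FPKM of at least 1 in the WT 0 h library, 92409 short internal exons covered 12.9 Mb and held 387 summits, or 30.02 summits per Mb (27.1 to 33.2). Long internal exons of the same genes held 189 summits per Mb (183 to 196) and last exons 323 (315 to 331), which was 6.31 and 10.8 times as many. Of the short internal exons 0.419% held a summit (0.379 to 0.463), against 19.2% of the long internal exons and 47.1% of the last exons.

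Within the short internal exons the density rose steeply with exon length. It was 5.72 summits per Mb in exons under 100 bp (2.96 to 10.0), 10.1 from 100 to under 200 bp (7.89 to 12.8), 49.5 from 200 to under 300 bp (41.3 to 58.9) and 126 from 300 bp to the limit (108 to 145). Above the limit it was 225 in internal exons from 400 to under 600 bp, 303 from 600 to under 1000 bp and 156 in longer ones. Neighbouring intervals did not overlap from 100 bp to 1000 bp. The exons that held a peak had a median length of 290 bp (quartiles 208 and 349), against 126 bp for all short internal exons of expressed genes. Of the 434 peaks 203 (46.8%) lay in exons of 300 bp or more, a class that makes up 4.49% of short internal exons, and 13 (2.995%) in exons under 100 bp, which make up 31.4%.

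**Figure D1:**
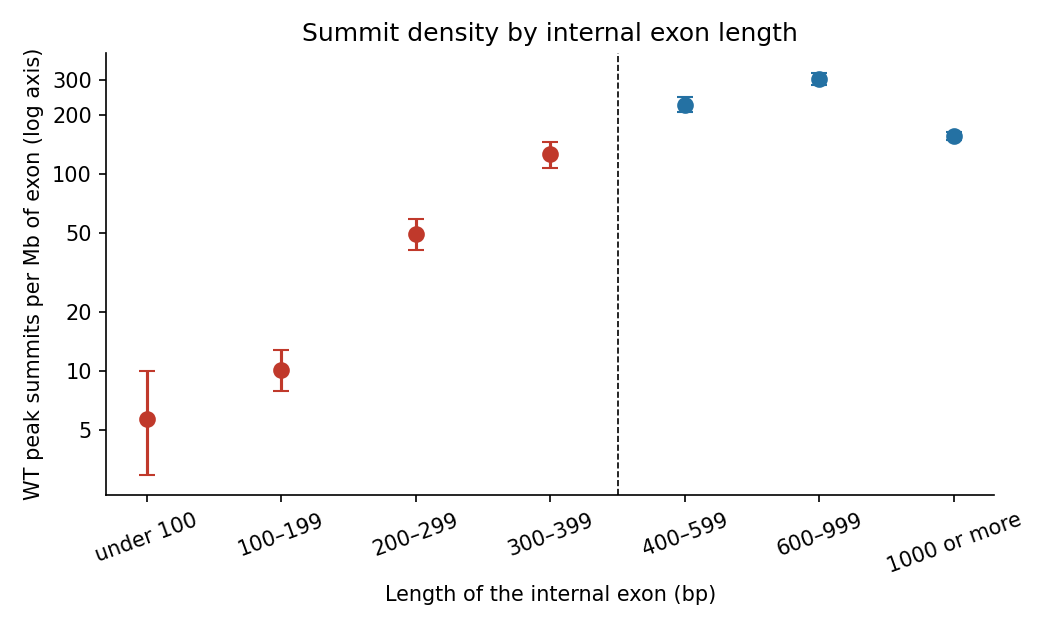
Summits of WT peaks per Mb of internal exon (log axis) against exon length, with exact Poisson 95% intervals, in genes with an FPKM of at least 1. Red points are short internal exons, blue points long ones, and the dashed line is the limit of 400 bp; density rose from 5.72 per Mb under 100 bp to 303 per Mb at 600 to under 1000 bp.

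Most of these summits lay in coding sequence. By the GENCODE vM21 annotation 339 of the 434 (78.1%, 74.0 to 81.7) were in coding sequence, 54 (12.4%, 9.66 to 15.9) in 5′UTRs, 7 in 3′UTRs, 27 in non-coding exons and 7 in no annotated exon. For long internal exon peaks the 5′UTR share was 4.14% (3.55 to 4.82) and the 3′UTR share 9.58%. To bring exon lengths closer, short internal exons of at least 200 bp were compared. Length still differed there: 203 of 342 peaks lay in exons of 300 bp or more, against 4152 of the 15027 exons of expressed genes. Of the 342 peaks 24.0% lay in the second exon of the gene (19.8 to 28.8), against 13.2% of these exons of expressed genes (12.7 to 13.7). The second to last exon held 18.1% of these peaks (14.4 to 22.6), against 9.84% of the exons, and 19.3% of the peaks lay in an exon with a start codon (15.5 to 23.8), against 10.9% of the exons. An exon that starts some annotated transcript held 26.0% of the peaks (21.7 to 30.9) and made up 33.5% of the exons. An exon that was internal in every annotated transcript of its gene held 53.2% of these peaks (47.9 to 58.4), against 43.8% of such exons. Over all lengths the order was the opposite: 237 of the 434 peaks (54.6%) lay in an exon internal in every annotated transcript. Among all short internal exons of expressed genes, with a median length of 126 bp, the share was 72.7%. The other 197 peaks lay in an exon that is also the start or the end of some annotated transcript.

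The peaks were weak. Fold enrichment over the local background had a median of 3.83 (3.57 to 4.06, quartiles 2.61 and 5.23), against 6.17 for long internal exon peaks (6.01 to 6.31), 6.52 for last exon peaks (6.42 to 6.65) and 6.23 for all WT peaks. The median −log10 q was 9.69, against 28.1 and 29.7, and 74.4% of the peaks fell into the lower 5 of 10 equal groups of all WT peaks by −log10 q. Their genes were more highly expressed, with a median FPKM of 11.6 (9.42 to 13.2) against 5.08 for genes of long internal exon peaks and 5.58 for genes of last exon peaks. When all WT peaks on genes were cut into 4 equal groups by FPKM, the fold enrichment of the short internal exon peaks was lower in each group, with medians of 5.70, 4.55, 3.98 and 2.70 from the lowest to the highest FPKM, against 7.32, 7.05, 6.02 and 4.54 for long internal exon peaks. The step at the limit was 3.98 (108 peaks) in exons of up to 50 bp under it and 5.30 (118 peaks) in internal exons of up to 50 bp above it. Within the short exons length made little difference, with medians of 4.06 under 100 bp, 3.99 from 100 bp, 3.52 from 200 bp and 3.98 from 300 bp, and overlapping intervals.

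The peaks were often wider than the exon. No peak in either list was narrower than 200 bp, so each of the 92 peaks in exons under 200 bp has to reach into the flanking sequence. In all, 378 of the 434 peaks (87.1%, 83.6 to 89.9) crossed at least 1 edge of the exon, 140 (32.3%) crossed both, and at the median 66.6% of the peak lay inside the exon. Only 51 (11.8%) touched another exon of the gene, of which 8 touched a long internal exon and 3 the last exon. The summit itself lay a median of 83 bp from the nearer exon edge (73 to 93), against a median of 72.5 bp for the mean distance that evenly spread positions would have in the same exons. In 94 peaks (21.7%) the summit lay within 25 bp of an edge, and in 181 (41.7%) it lay more than 100 bp from both.

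GGAC was more common under these peaks than in other short internal exons, and its share was close to that under long internal and last exon peaks. GGAC on the gene strand within 50 bp of the summit was present in 271 of 434 peaks (62.4%, 57.8 to 66.9), against 61.1% of long internal exon peaks and 61.0% of last exon peaks, differences of 1.38 (−3.52 to 6.08) and 1.48 (−3.30 to 6.05) percentage points. In 101-base windows at the middle of other short internal exons of the same genes, which reach into introns where the exon is shorter, it was present in 35.9% of 3706 windows (34.4 to 37.5), a difference of 26.5 points (21.6 to 31.2), and against exons of at least 200 bp without a summit the difference was 29.0 points (23.7 to 33.9). These differences set summits against exon middles. At the middle of the exons with a peak, the like position, GGAC was present in 54.8% (50.1 to 59.5), which is a smaller excess. The longer form GGACT was found in 27.2% of the peaks, against 10.2% of the other exons. The exons with a peak had 7.83 GGAC per kb (7.33 to 8.34) and a median GC content of 53.8%, the other short internal exons of the same genes 4.54 per kb (4.36 to 4.72) and 50.4%. AGAC and AAAC are other forms of the m6A motif. AGAC was found in 44.0% of the peaks and 37.4% of the other exons, and AAAC in 29.7% and 32.8%. Both were less common than under long internal exon peaks, AGAC by a difference of −6.12 points (−11.0 to −1.16) and AAAC by one of −4.92 points (−9.30 to −0.21), and against last exon peaks AGAC differed by −7.32 points (−12.1 to −2.48). Against exons of at least 200 bp without a summit AAAC was more common as well, with 31.9% of the peaks in such exons and 25.3% of the exons (difference 6.53 points, 1.77 to 11.7), a smaller difference than that for GGAC or AGAC (29.0 and 12.3 points). The share with GGAC was 74.8% (66.0 to 81.9) among the peaks in the upper 5 groups by −log10 q and 58.2% (52.8 to 63.5) among those in the lower 5.

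**Figure D2:**
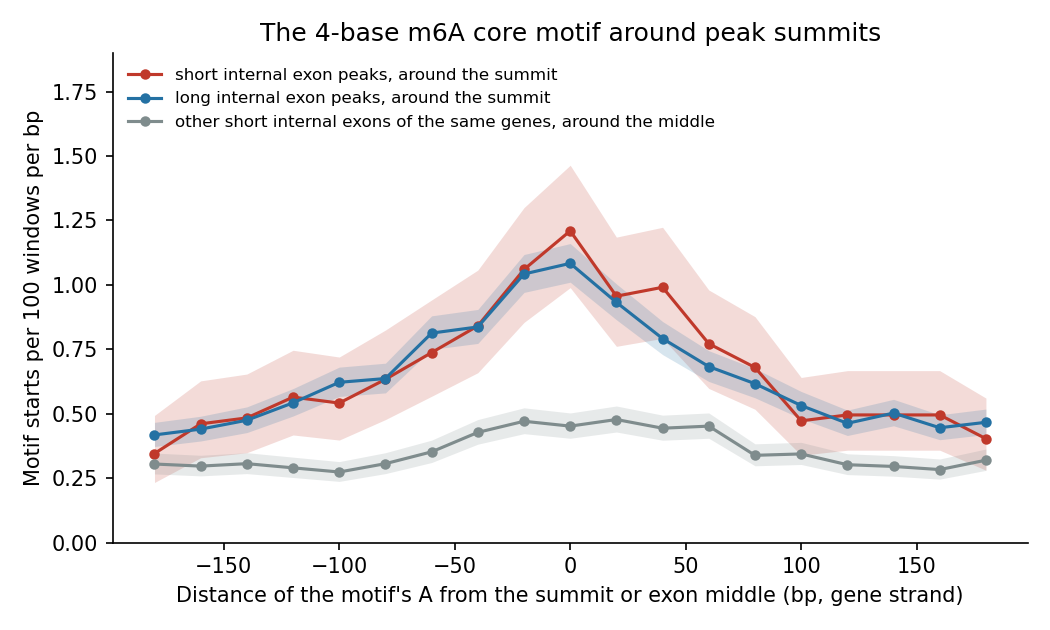
Frequency of GGAC on the gene strand against the distance of its A from the summit, in bins of 20 bp, for short internal exon peaks (red), long internal exon peaks (blue) and the middle of other short internal exons of the same genes (grey), with exact Poisson 95% intervals as bands. Short internal exon peaks reached 1.21 motifs per 100 windows and bp at the summit and the other exons 0.452 at their middle.

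Single peaks stood well above this level. Cyld, a deubiquitinase that restrains NF-κB signalling, had the highest fold enrichment, 23.1 (chr8:88706986-88707353, exon 4 of 19, −log10 q 65.1), and no overlapping R255K peak. Rnf157, an E3 ubiquitin ligase, had 15.5 in the exon of 111 bp shown above, with only 15.1% of its 733 bp inside the exon, and was also lost. Ndufs4, a subunit of respiratory complex I, had 17.6 in WT and 9.94 in R255K cells on an exon annotated as 3′UTR. Mettl6, a tRNA methyltransferase, carried the most significant peak, with a −log10 q of 158 and a fold enrichment of 11.5 in WT, and 75.7 and 9.36 in R255K cells. The 10 highest also held peaks of 2610005L07Rik (12.7 in WT and 5.45 in R255K cells) and Ptch1, both described with the genes that had several peaks. The rest were on Snx29, a sorting nexin (12.2 in WT and 6.78 in R255K cells), on Spata13 (11.8 and 5.88), on Pik3cb, a catalytic subunit of PI 3-kinase (10.8 and 7.10), and on Setdb2, a SET-domain protein (9.22 and 7.63). All 4 were lower in R255K cells. Peaks picked for a high WT value tend to be lower in the other list by the choice alone. Of the kept peaks with a WT fold enrichment of 4 or more, 71.1% were lower in short internal exons and 76.9% in long ones. The peaks on Pik3cb and Setdb2 lay in 5′UTRs.

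Genes with several such peaks differed in how these fared. Ptch1, the receptor for Hedgehog ligands, had 3, all kept: one in exon 2 (fold enrichment 11.5 in WT and 7.30 in R255K cells), one in exon 6 (3.81 and 4.44) and one in exon 26 (6.68 and 6.92), so that the strongest was lower and the other two were slightly higher in R255K cells. Incenp, the scaffold of the chromosomal passenger complex in mitosis, had 3 in exons 11, 13 and 14 of 18 (2.71, 2.48 and 5.12 in WT), of which the first pair were overlapped by a single R255K peak of 5.06 and the last by one of 6.08. Lrp5, a Wnt co-receptor, had 1 that was kept in exon 7 (7.68 and 3.68) and 1 that was lost in exon 2 (6.54), both exons being 397 bp long. Atad2, a bromodomain ATPase, had 6.52 in WT and 7.38 in R255K cells, and Ncoa5, a nuclear receptor coactivator, 9.15 and 5.03. Among the lost peaks with the highest −log10 q were Vps54, a subunit of a Golgi tethering complex (fold enrichment 5.78, −log10 q 71.2), and Pank2, a pantothenate kinase of coenzyme A synthesis (4.90 and 60.5). The peaks on 2610005L07Rik (3), 6820431F20Rik (2) and Gm21092 (at 20572658 and 20578575), predicted genes of chromosome 8, are uncertain, because they are near-identical copies. The peak of Gm21092 at 20578575 matched one of 2610005L07Rik over all of its 366 bp. The one of 6820431F20Rik at 20283094 matched another over 302 of 303 bp. Gm21811 and Gm6483, on the same chromosome, had 2 peaks each that were not checked for copies. The peak of Gm21092 at 20578575 was listed as lost while its copy on 2610005L07Rik was kept.

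The comparison with R255K cells asked which of these peaks remain when METTL14 carries the substitution. Of the 434 peaks 171 (39.4%, 34.9 to 44.1) were overlapped by an R255K peak by at least 1 bp, against 43.6% of all WT peaks, 52.0% of long internal exon peaks and 51.6% of last exon peaks. The difference from long internal exon peaks was −12.6 points (−17.4 to −7.68), and −4.14 points (−8.84 to 0.763) where the R255K peak had to cover at least 50% of the WT peak. The other 263 were lost, against 56.4% of all WT peaks. Of these, 157 (59.7%) lay on genes that had some other R255K peak in an exon, with no share of other lost peaks to set this against. Of the 171 kept peaks 148 had the R255K summit in the same exon, and 170 R255K peaks in all lay over them. The share was 57.4% (44.2 to 69.7) with a 5′UTR summit and 37.5% (32.5 to 42.7) with a coding summit, and it hardly varied with exon length (38.5%, 43.0%, 38.8% and 38.4% from the shortest to the longest of the 4 length classes). It was 38.0% in exons of up to 50 bp under the limit and 36.4% in internal exons of up to 50 bp above it.

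At equal −log10 q the order turned around in the 5 weakest groups. In the group of WT peaks with the lowest −log10 q, 27 of 90 short internal exon peaks were kept (30%, 21.5 to 40.1), against 9.30% of long internal exon peaks (6.10 to 13.9) and 8.13% of last exon peaks. In the next 4 groups the shares were 34.4%, 28.4%, 35.4% and 45%, against 11.8%, 15.5%, 19.5% and 22.7% of long internal exon peaks, and the intervals of both classes overlapped only in the middle one of these 5 groups. In the upper 5 groups the intervals overlapped, with 35.9%, 61.5%, 63.0%, 80.0% and 100% (4 of 4) against 37.1%, 56.8%, 74.8%, 91.5% and 98.7%. Long internal exon peaks weighted to the strength of the short internal exon peaks were kept in 26.5%, which put the short internal exon peaks 12.9 points above them (8.21 to 17.9). Gene expression moved with this. Kept peaks lay on genes with a median FPKM of 21.8 (16.6 to 30.3) and lost ones on genes with 7.81 (6.09 to 8.92), and by expression group 20.8%, 18.9%, 33.3% and 56.7% were kept, against 36.5%, 46.8%, 56.0% and 68.0% of long internal exon peaks. With long internal exon peaks weighted to both the −log10 q and the expression of the short internal exon peaks the difference was 9.45 points (4.24 to 14.8), and with expression alone −17.8 points (−22.6 to −12.9). The part of expression and of peak strength in the kept share was not tested beyond these groups.

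**Figure D3:**
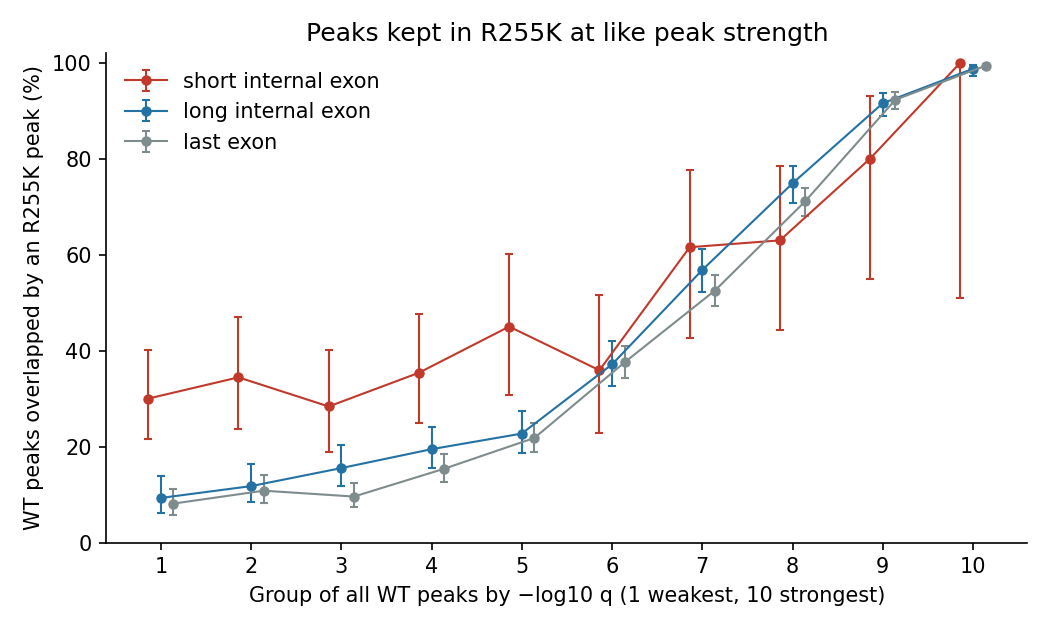
Share of WT peaks overlapped by an R255K peak in each of 10 equal groups of all WT peaks by −log10 q, for short internal exon (red), long internal exon (blue) and last exon peaks (grey), with Wilson 95% intervals. In the 5 weakest groups 28.4% to 45% of short internal exon peaks were kept, against 9.30% to 22.7% of long internal exon peaks.

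Where a peak was kept, its fold enrichment was about the same in both genotypes. The median log2 ratio of R255K over WT was 0.07 (−0.02 to 0.20) over the 171 pairs, with a median fold enrichment of 3.52 in WT and 3.65 in R255K cells, and 75 of the 171 (43.9%, 36.6 to 51.4) were lower in R255K cells. For kept long internal exon peaks it was −0.38 (−0.41 to −0.34) with 74.1% lower, for last exon peaks −0.40 with 76.4% lower and for all kept peaks −0.33 with 70.3% lower. The pairs were also split by the WT value. Because that value is the denominator of the ratio, strong WT peaks tend to a lower ratio and weak ones to a higher one by the split alone, and the classes are compared only within each range. Among pairs with a WT fold enrichment of 4 or more the median was −0.32 (−0.52 to −0.19, 76 pairs), against −0.43 (−0.47 to −0.39) for long internal exon peaks. Among the weaker pairs it was 0.31 (0.21 to 0.46, 95 pairs), against 0.01 (−0.10 to 0.10). A weak WT peak counts as kept only if the R255K peak passed the authors' threshold as well. How far this moved the ratio in each class was not tested. Of the 171 pairs 9 were more than 2-fold lower and 12 more than 2-fold higher in R255K cells. Of all 7717 kept peaks 1104 and 115 were, and of 1961 kept long internal exon peaks 286 and 14. The short internal exon peaks thus had a smaller share lower and a larger share higher.

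**Figure D4:**
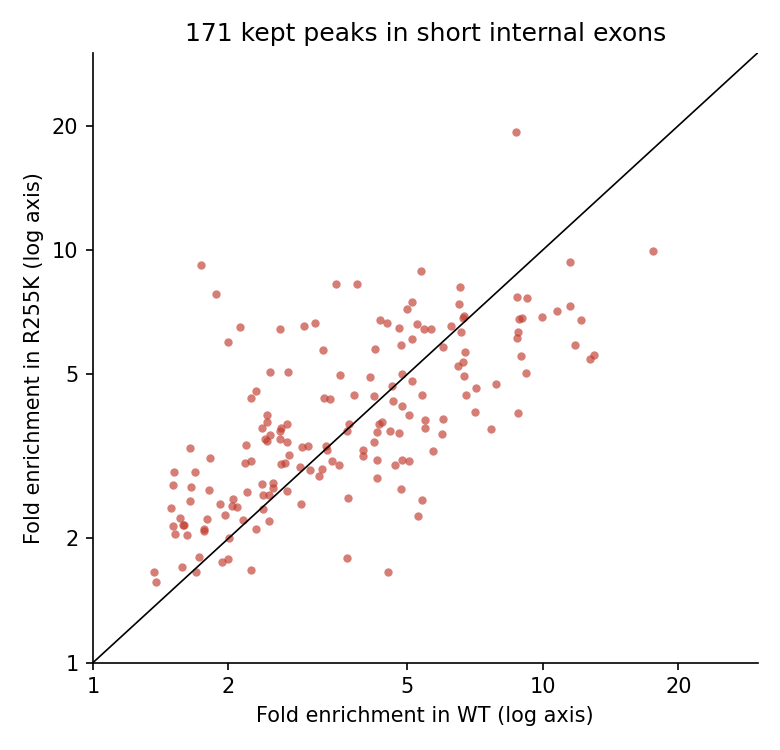
Fold enrichment of the overlapping R255K peak against that of the WT peak for the 171 kept short internal exon peaks, both axes log, with the line of equality. Of the points 75 lie below the line.

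The same rule applied to the R255K list gave 318 peaks, a ratio to the WT number of 0.733 (0.632 to 0.849), against 0.580 (0.550 to 0.612) for long internal exon peaks, 0.563 for last exon peaks and 0.533 for all peaks. Other classes had ratios as high or higher, with 0.714 (0.629 to 0.809) for first exons, 0.749 (0.665 to 0.843) for genes of a single exon and 1.39 (1.26 to 1.55) for the 5′ ends of genes. These were not only the kept ones. Of the 318, 150 overlapped a short internal exon peak of WT cells, 13 another WT peak and 155 no WT peak (48.7%, 43.3 to 54.2), against 4.57% of R255K peaks in long internal exons, 2.74% in last exons and 13.2% of all R255K peaks. The difference from long internal exons was 44.2 points (38.6 to 49.7). It held in each expression group, with 50%, 43.3%, 46.5% and 50.3% against 4.95%, 2.38%, 2.46% and 8.50%.

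The 155 peaks found in R255K cells alone differed from the WT peaks in several measures. Their median fold enrichment was 2.76 and their median −log10 q 5.93, and 76.8% had a fold enrichment under 4, against 54.1% of the WT peaks. The exons were shorter (median 209 bp, and 45.8% under 200 bp, against 21.2%), the genes more highly expressed (median WT FPKM 27.1), and 51.0% of the summits lay within 50 bp of an exon edge (43.2 to 58.7), against 35.3% (30.9 to 39.9). They were more often in the second exon (36.1%, 29.0 to 43.9) and in the 5′UTR (23.9%, 17.8 to 31.2) than the WT peaks (23.3% and 12.4%), and 49.7% lay in an exon that starts some annotated transcript, against 25.1%. Over all 318 R255K peaks in short internal exons the first 2 shares were 33.6% (28.7 to 39.0) and 21.1% (16.9 to 25.9), so neither was particular to the 155. R255K peaks that overlapped a WT peak lay on genes with a median WT FPKM of 20.9. GGAC within 50 bp of the summit was present in 49.0% (41.3 to 56.8), against 65.03% (57.4 to 71.9) of the R255K peaks that overlapped a WT peak. At the middle of all short internal exons of expressed genes, not a summit, it was 35.5%. The 5 with the highest −log10 q, named here for their values, were on Dmtn, an actin-bundling protein of the erythrocyte membrane (fold enrichment 7.70), Ak1, adenylate kinase (8.01), Rara, a retinoic acid receptor (5.22), Ctnnbl1, a spliceosome-associated protein (3.72), and Rps15, a ribosomal protein (2.11, WT FPKM 699). In 97 of the 155 cases (62.6%) the gene had a WT peak in some exon, with no share of other R255K peaks to set this against. The read depth behind the lists is unknown, and its part in these differences was not tested.

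Genes of known groups were looked up for such peaks. Of 11648 genes with an FPKM of at least 1, 354 (3.04%) had a short internal exon peak, and the small counts in the lists are read against that share. Of 24 pluripotency genes only Sall4, a zinc-finger factor of the stem cell state, had one (fold enrichment 3.98 in WT and 3.28 in R255K cells). Of 20 genes of the m6A machinery there were 2, Zc3h13, a subunit of the writer complex (5.29, lost), and Prrc2a, an m6A-binding protein (2.47, lost). Of 18 genes of the exon junction complex and nonsense-mediated decay there were 2, Upf3b, which links the complex to the decay factors (3.69, lost), and Upf2, its partner (3.12 in WT and 6.63 in R255K cells). Of 26 SR and hnRNP splicing genes there was Srrm2 (2.18 and 3.36), and of 24 histone lysine methyltransferases Kmt2b (2.60 and 3.65). Chromatin remodellers had the most, 5 of 24, with Chd8 (3.10, lost), Smarce1 (2.70 and 3.43), Chd9 (3.06, lost), Bptf and Smarcc2. Of 19 kinesins and myosins there were 3, Myo10 (4.21 and 4.43), Myh10 (2 peaks, both lost) and Myh9 (1.51 and 2.89). None of 19 basement membrane and adhesion genes had one.

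After transcription was stopped, the RNA of genes marked only in short internal exons stayed, at the median, level with that of genes without a peak, while genes with peaks in long internal or last exons were lower. All exonic WT peaks lay in short internal exons in 110 genes, and 289 genes had peaks in other exons too. For 89 of the 110 the FPKM at 0 h averaged at least 1, and over these the median log2 ratio of 8 h to 0 h in WT cells was 0.17 (−0.01 to 0.36), computed on FPKM + 1. For genes without a peak it was 0.17 (0.14 to 0.20, 5106 genes), for genes with peaks in long internal exons only −0.90 (−0.99 to −0.81), for last exons only −0.93 (−0.97 to −0.86), and for the genes with both short internal and other peaks −1.40 (−1.64 to −1.17). Of the 89 genes 14 (15.7%) were at least 2-fold lower at 8 h, against 35.2% of all 11869 genes and 14.8% of genes without a peak, and 9 (10.1%) at least 2-fold higher, against 3.82% and 7.89%. In R255K cells the median of the 89 genes was 0.14 (0.04 to 0.20), with 5 genes (5.62%) at least 2-fold lower against 15.2% of all genes and 1 higher against 0.986%. All these ratios are relative to the summed counts of each library, so they give the order of the groups and not absolute decay. With TMM scaling the median of all genes in WT cells moved from −0.47 to −0.09, and the medians of the 89 genes (0.60) and of genes without a peak (0.60) moved with it.

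Scaled to summed counts, the genotypes differed more in the gene groups with peaks in long internal or last exons. The median over genes of R255K minus WT in the log2 ratio of 8 h to 0 h was −0.07 (−0.26 to 0.31) for the 89 genes, −0.09 for genes without a peak, 0.56 (0.52 to 0.63) for long internal exons only, 0.47 for last exons only and 0.79 (0.65 to 0.90) for short internal and other peaks. At least 2-fold higher were 9 of the 89 (10.1%), against 18.7% of all genes and 27.3% of genes with long internal exon peaks only, and at least 2-fold lower was 1 of the 89, against 1.58%. At 0 h the R255K over WT ratio of the 89 genes had a median of −0.02 (−0.17 to 0.12), with 11 at least 2-fold lower (12.4%, against 5.92%) and 4 higher (4.49%, against 6.44%). The 89 genes had a median WT FPKM of 21.3 and a median summed exon length of 3183 bp per gene, against 6.02 and 5834 bp for long internal exons only and 8.27 and 2560 bp without a peak, and the part of level and length was not tested in full. Among genes with an FPKM of at least 10 the WT medians were 0.31 (59 genes), −0.71 for long internal exons only, −0.55 for last exons only and 0.46 without a peak. With TMM scaling R255K minus WT was −0.35 for the 89 genes and −0.40 without a peak. It was 0.34 for long internal exons only, 0.245 for last exons only and 0.53 for short internal and other peaks. The order of the groups held, but the 89 genes then differed about as much as the long internal group, in the opposite direction.

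Single genes ranged widely around these medians. Ndufs4, whose exonic WT peak is in a short internal exon only, went from 26.4 FPKM at 0 h through 42.9 at 4 h to 54.9 at 8 h in WT cells, and through 28.9, 35.8 and 40.3 in R255K cells, so that its share of the RNA rose in both. Atad2, also of this group, read 32.8, 18.2 and 4.90 FPKM at these times in WT cells, while R255K cells gave 12.8, 20.4 and 12.0, and it was thus lower at 8 h than at 0 h in WT cells and at nearly the same level in R255K cells. Mettl6, with other peaks as well, read 16.6, 6.14 and 2.17 FPKM in WT cells, while R255K cells gave 22.5, 20.6 and 14.6. Ptch1, likewise, read 6.87, 0.438 and 0.265 FPKM in WT cells, while R255K cells gave 13.4, 1.49 and 0.884, falling steeply in both.

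The 89 genes were also divided by whether any of their short internal exon peaks was kept. With any kept peak the median log2 ratio of 8 h to 0 h was 0.36 (0.16 to 0.69, 47 genes) in WT and 0.17 in R255K cells, with a median difference per gene of −0.26 (−0.45 to 0.02). With all peaks lost it was −0.06 (−0.56 to 0.17, 42 genes) and −0.0033, and the median of the differences per gene was 0.23 (−0.10 to 0.49). The intervals of the 2 sets overlapped for all 3 values, in WT cells by a narrow margin.

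**Figure D5:**
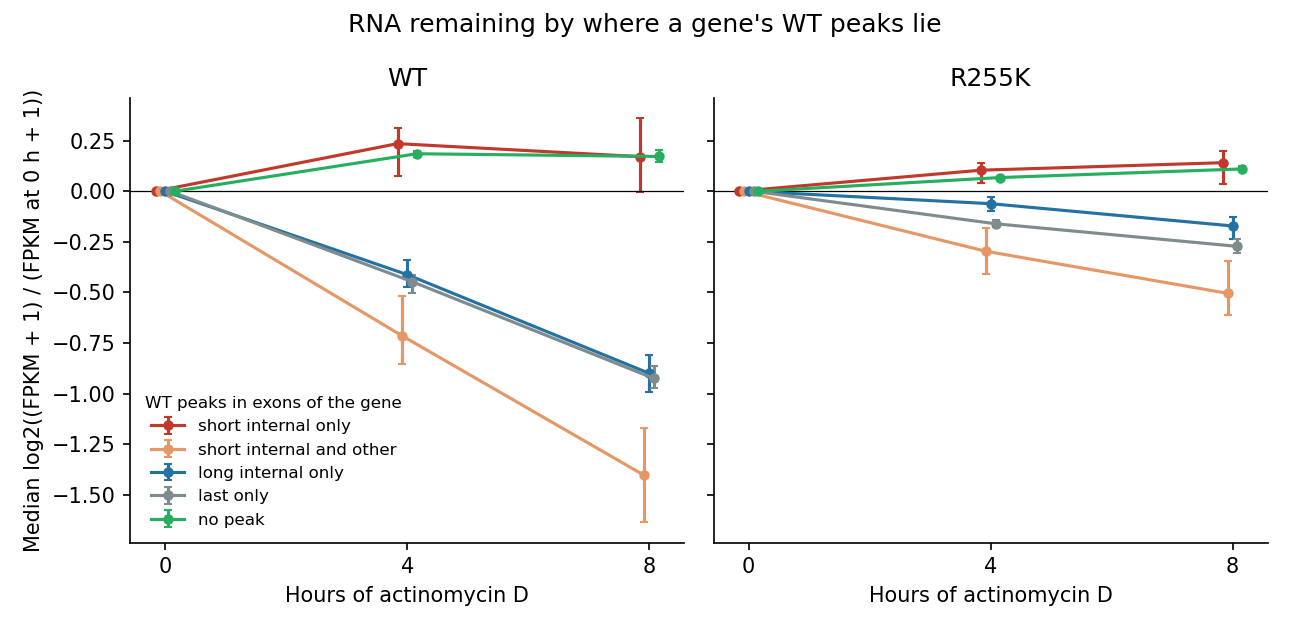
Median log2 ratio of FPKM + 1 against 0 h after 4 and 8 h of actinomycin D, in WT (left) and R255K cells (right), for genes grouped by where their exonic WT peaks lie, with 95% intervals of the median over genes and 1 library per point. Genes with short internal exon peaks only (red) lie with genes without a peak (green) at 0.17 after 8 h in WT cells, and the other 3 groups lie between −0.90 and −1.40.

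The 6 RNA libraries held between 13812160 and 18813640 counts on 52459 genes. Stem cell markers were high at 0 h in both genotypes, between 80.4 and 433 FPKM for Pou5f1, Sox2, Nanog, Zfp42, Esrrb and Tdgf1. Of 6 fibroblast markers Col1a1 was at 0.0787 FPKM in WT and 1.46 in R255K cells at 0 h and Thy1 at 1.55 and 4.01, and the other 4 were between 0 and 1.03. Mettl14 itself had 5.27 FPKM in WT and 2.58 in R255K cells at 0 h, which does not check the labels, since the knock-in changes 1 codon.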

How the data were processed

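MeRIP-seq (2 input and 2 IP libraries per genotype) and RNA-seq after 0, 4 and 8 h of actinomycin D (1 library per genotype and time) were analysed in WT and METTL14 R255K mESCs. The authors removed rRNA reads with bowtie2 (2.2.6), aligned the rest to mm10 with HISAT2, kept unique reads of high mapping quality with Picard (2.16.0) and SAMtools (0.1.09), and used MACS2 to call peaks. The deposited lists give for each peak a score, its fold enrichment (a ratio of IP signal at the summit to the local level) and the −log10 q, beside a −log10 p that was not used. RNA was fragmented before pull-down, so a peak is wider than the modified base. How the 2 libraries of a kind were combined, the counting tool and the annotation are not given in the sources used here. The counts per gene were deposited without normalization. Uniquely aligned reads lose or misplace signal in repeated genes.

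Exons of the count tables were merged per gene with pandas (2.3.3), and 96.0% of them were identical in GENCODE vM21, from which coding sequence and UTRs were taken. Sequences were read from GRCm38 with pysam (0.24.0), and copies were aligned with Biopython (1.88). FPKM used the summed counts of a library (13812160 to 18813640), log2 ratios a pseudocount of 1, and edgeR (4.0.16) gave TMM factors only. Shares have Wilson intervals, differences of shares Newcombe intervals, densities and ratios of counts exact Poisson or binomial intervals, and medians intervals from order statistics (scipy 1.17.1). Weighted shares used 10 groups by −log10 q and 4 by FPKM. The assignment of peaks and the ratios were tested on simulated data. The depth of the peak lists is unknown.

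The peaks and the gene lists were chosen with earlier results of these data known. Named are the 10 peaks with the highest fold enrichment on genes with an FPKM of at least 1, the 5 kept and 5 lost with the highest −log10 q, the 5 genes with most peaks and list genes with a peak, up to 3 per list by −log10 q and beyond that where a count of 5 or fewer was given. None of the genes the study names had such a peak. Sequences were set to be whole exons of at most 300 bp with GGAC in coding sequence. Only 1 exon met this, so 101-base windows of the longer exons were added after their values were seen. A further sequence is not reported here.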

Additional observations from a re-analysis of the deposited data

How the results depend on the processing

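Of 71 results recomputed under another setting, 45 stayed the same, 24 moved and 2, both differences in kept share, changed a direction whose interval left out 0. Results were judged by the interval of the main value. The number of peaks, which has no interval, was judged by its ratio to the main number. The lower kept share than long internal exon peaks depended on the matching: −12.6 percentage points as it stood, −4.14 (−8.84 to 0.763) where the R255K peak had to cover at least 50% of the WT peak, −18.3 with peaks under the median fold enrichment of all WT peaks removed, −17.8 weighted by expression, 12.9 weighted by −log10 q and 9.45 weighted by both. The kept share itself was 50.7% with those peaks removed and 51.4% with the groups of −log10 q weighted as among all WT peaks. A limit of 300 bp gave 231 peaks and one of 500 bp 706. The density was 35.6 per Mb at an FPKM of at least 5, 23.6 with peaks under a −log10 q of 5 removed and 24.2 in exons internal in every annotated transcript, and the median fold enrichment at a −log10 q of at least 5 was 4.21. GGAC was found in 81.3% within 100 bp, 42.9% within 25 bp and 72.8% on either strand, where the difference from other exons was 18.8 points. The log2 ratio of kept peaks was 0.24 in the lower and −0.33 in the upper 5 groups of −log10 q, against 0.07 over all, a split that itself moves with the WT value in the ratio.

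The median log2 ratio of the RNA of the 89 genes was 0.60 with TMM factors and −0.039 for 8 h over 4 h. Relative to all genes it was 0.64, and 0.077 without a filter on FPKM, 0.37 for 4 h over 0 h, 0.18 for 8 h over 4 h and 0.38 at an FPKM of at least 10. R255K minus WT was −0.35 with TMM factors and 0.018 without a filter on FPKM, against −0.07. The ratio for 8 h over 4 h, the upper groups and this last value thus had the opposite sign to the value they are set against. The cause of these shifts was not tested, apart from the fewer peaks, exons or genes that a filter leaves. The weightings by expression and by both, the exons internal in every transcript and the groups of kept peaks were chosen after seeing the data. The same holds for the FPKM of at least 10 and for GGAC in exons of 200 bp or more. Leaving out summits in exons of several genes, and the genes with near-identical copies, was also chosen then.

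No paired analysis was possible because each genotype has 1 peak list and 1 RNA library per time. For the same reason no replicate was left out, and a difference between genotypes cannot be told apart from one between their libraries. The depth of the IP and input libraries is unknown, weak peaks lie near the threshold of the caller, and a peak of at least 200 bp does not place a base within a short exon.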
